A study of Mus musculus with 201 samples.

Results

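The oligosaccharyltransferase is the enzyme of the endoplasmic reticulum that transfers a preassembled sugar chain from a lipid carrier to asparagine residues of newly made proteins. Its subunits examined here were Rpn1, Rpn2, Ddost, Dad1, Stt3a, Stt3b and Ostc. They were measured in the hippocampus of 100 mouse strains on 201 Affymetrix M430 2.0 arrays. All probe sets annotated to the 7 genes were taken, which gave 18 of 45037 probe sets on the array. Each probe set is a group of short oligonucleotides read out as 1 value. The 7 genes were selected because Rpn1 differed between wild-derived and classical strains in these same data, so the wild-derived values are given as a description without a test.

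Stt3a and Stt3b are alternative catalytic subunits: STT3A acts mainly on chains as they enter the translocon, and STT3B can modify sites that were skipped. Rpn1 (ribophorin 1), Rpn2 (ribophorin 2), Ddost and Dad1 are shared, non-catalytic subunits, and Ostc belongs to the STT3A form of the enzyme. N-glycans added in this way are carried by most receptors, channels and adhesion proteins at the neuronal surface.

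Each array was hybridised with RNA pooled from the hippocampi of 1 to 4 mice of 1 strain, and no pool was treated. There were 68 BXD strains, recombinant inbred lines derived from C57BL/6J and DBA/2J, on 134 arrays. A further 27 arrays held 13 CXB strains, which descend from a BALB/cByJ by C57BL/6ByJ cross. The classical inbred strains 129S1/SvImJ, A/J, AKR/J, BALB/cByJ, BALB/cJ, C3H/HeJ, C57BL/6ByJ, C57BL/6J, DBA/2J, KK/HIJ, LG/J, NOD/LtJ and NZO/HlLtJ were on 27 arrays, aged 51 to 96 days. The wild-derived strains were CAST/EiJ, with 1 array of females aged 64 days, PWD/PhJ, with 2 arrays of males aged 64 and 65 days, PWK/PhJ, with a female array at 63 days and a male array at 83 days, and WSB/EiJ, with a female and a male array at 58 days. The reciprocal hybrids B6D2F1 and D2B6F1 were on 6 arrays, aged 63 to 72 days. The BXD pools were 54 to 196 days old and the CXB pools 41 to 80 days. The arrays were run in 7 labelled batches. Whether the pools of 1 strain were made from different mice is not stated, and the errors therefore cover only the spread between arrays. In a tissue pool, fewer cells of a type and less RNA per cell cannot be told apart.

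Levels are PDNN values, the authors' log-like score per probe set, of unknown base. Differences are therefore in PDNN units and are not fold changes, and levels of different probe sets were not compared. Over all arrays and tested probe sets, array means ran from 8.06 to 8.10 and SDs from 0.63 to 0.80 units. The header of 1 wild-derived array, PWD/PhJ replicate 1, names PWK/PhJ and the other sex. The labels were used, and PWD/PhJ is also given without that array. All 6 pyramidal neuron markers had a mean of 8 units or more, as did 5 of 6 choroid plexus markers and 41.9% of all probe sets. That level is therefore not specific to the tissue.

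RefSeq's promoter table (GRCm38.p6) held windows for 6 of the 7 genes. The 250 bases before the start are shown for Rpn1, on which the results turn, and for both catalytic subunits. Across the BXD strains, Stt3a 1455824_x_at and Stt3b 1426342_at had Pearson r of 0.63 and 0.48 with Rpn1 1439257_x_at. Not every probe set of these genes followed it, with -0.34 for Stt3a 1441417_at and -0.25 for Stt3b 1426343_at. Dad1 1454860_x_at and Ostc 1449139_at each had 0.45. Capitals mark the pentamer CCAAT or its reverse complement ATTGG. The windows lie at chr6:88084223-88084472 on the plus strand (Rpn1), chr9:36767623-36767872 on the minus strand (Stt3a) and chr9:115310469-115310718 on the minus strand (Stt3b).
Rpn1: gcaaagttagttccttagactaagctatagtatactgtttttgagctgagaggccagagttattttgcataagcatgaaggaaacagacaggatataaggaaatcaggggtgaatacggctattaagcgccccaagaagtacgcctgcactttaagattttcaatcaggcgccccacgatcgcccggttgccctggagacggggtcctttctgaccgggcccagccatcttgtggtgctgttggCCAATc
Stt3a: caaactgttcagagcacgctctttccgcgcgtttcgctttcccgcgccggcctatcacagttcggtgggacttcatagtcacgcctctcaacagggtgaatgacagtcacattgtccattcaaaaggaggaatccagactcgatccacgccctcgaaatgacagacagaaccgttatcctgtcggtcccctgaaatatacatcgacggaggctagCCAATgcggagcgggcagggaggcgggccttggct
Stt3b: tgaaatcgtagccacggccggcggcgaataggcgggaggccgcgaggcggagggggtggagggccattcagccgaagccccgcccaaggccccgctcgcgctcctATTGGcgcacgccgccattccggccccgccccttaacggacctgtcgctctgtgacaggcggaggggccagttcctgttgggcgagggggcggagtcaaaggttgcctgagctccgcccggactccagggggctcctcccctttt

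CCAAT on either strand was found upstream of all 6 genes with a window, and in 33.8% of all 32851 upstream windows of 250 bases. It began 6 bases before the start in Rpn1 and 35 bases before it in Stt3a, and in Stt3b it lay on the other strand. CCACG, on either strand, was found in Rpn1, Stt3a and Stt3b and in 28.3% of all windows. CCAAT followed after 9 bases by CCACG, on either strand, was found in 0 of the 7 windows of these genes (Rpn2 has a second start) and in 0.113% of all windows. These matches are descriptions of letters in the reference strain.

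Rpn1, a ribophorin that lies at the side of the enzyme facing the ribosome and helps to bring substrates to it, had 6 probe sets. In 3 of them, 1438943_x_at, 1439257_x_at and 1456438_x_at, every array of CAST/EiJ, PWD/PhJ and PWK/PhJ lay far below every array of every other strain, while WSB/EiJ stayed close to the classical strains. The other 3 showed no such drop. Probe sequences and strain variants under the probes were not used here, and whether the lower values reflect less transcript or weaker binding to the probes was not tested.

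For Rpn1 probe set 1439257_x_at, the PDNN value was 7.86 in the CAST/EiJ array, 8.08 and 7.76 in the PWD/PhJ arrays, and 7.96 and 7.95 in the PWK/PhJ arrays. The WSB/EiJ arrays had 9.98 (female) and 9.60 (male). The 27 classical arrays ran from 9.63 through a median of 10.01 to 10.30, and the lowest of all 194 arrays outside the wild-derived strains had 9.53. The 5 arrays of CAST/EiJ, PWD/PhJ and PWK/PhJ thus did not overlap any other array, and of the WSB/EiJ pair only the male array was below all classical arrays. Fitted for sex and batch, the strain value minus the mean of the 13 classical strains (9.99 units) was -2.11 ± 0.15 (SE, n = 1 array) in CAST/EiJ, -2.09 ± 0.11 (n = 2) in PWD/PhJ and -2.01 ± 0.11 (n = 2) in PWK/PhJ. The order of these strain values was 7.88, 7.89 and 7.97, and neighbours in it differed by less than 1 SE. In WSB/EiJ the difference was -0.18 ± 0.11 (n = 2), inside the classical range of 9.72 (BALB/cByJ) to 10.18 (NZO/HlLtJ).

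Rpn1 probe sets 1438943_x_at and 1456438_x_at repeated this pattern. On 1438943_x_at the CAST/EiJ array had 8.03, the PWD/PhJ arrays 8.06 and 7.93, the PWK/PhJ arrays 8.09 and 8.05, and the WSB/EiJ arrays 9.71 and 9.38, against 9.35 to 10.02 in the classical arrays. On 1456438_x_at the values were 8.05 in CAST/EiJ, 8.20 and 8.06 in PWD/PhJ, 8.15 and 8.14 in PWK/PhJ, and 9.86 and 9.51 in WSB/EiJ, against 9.53 to 10.18. All 5 arrays of CAST/EiJ, PWD/PhJ and PWK/PhJ were below the classical arrays on both, and neither WSB/EiJ strain value left the classical range. The fitted differences on 1438943_x_at were -1.68 ± 0.14, -1.76 ± 0.10, -1.65 ± 0.10 and -0.17 ± 0.10 units in CAST/EiJ, PWD/PhJ, PWK/PhJ and WSB/EiJ. On 1456438_x_at they were -1.82 ± 0.14, -1.79 ± 0.11, -1.72 ± 0.10 and -0.18 ± 0.10 (SE, n = 1, 2, 2 and 2 arrays).

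**Figure D1:**
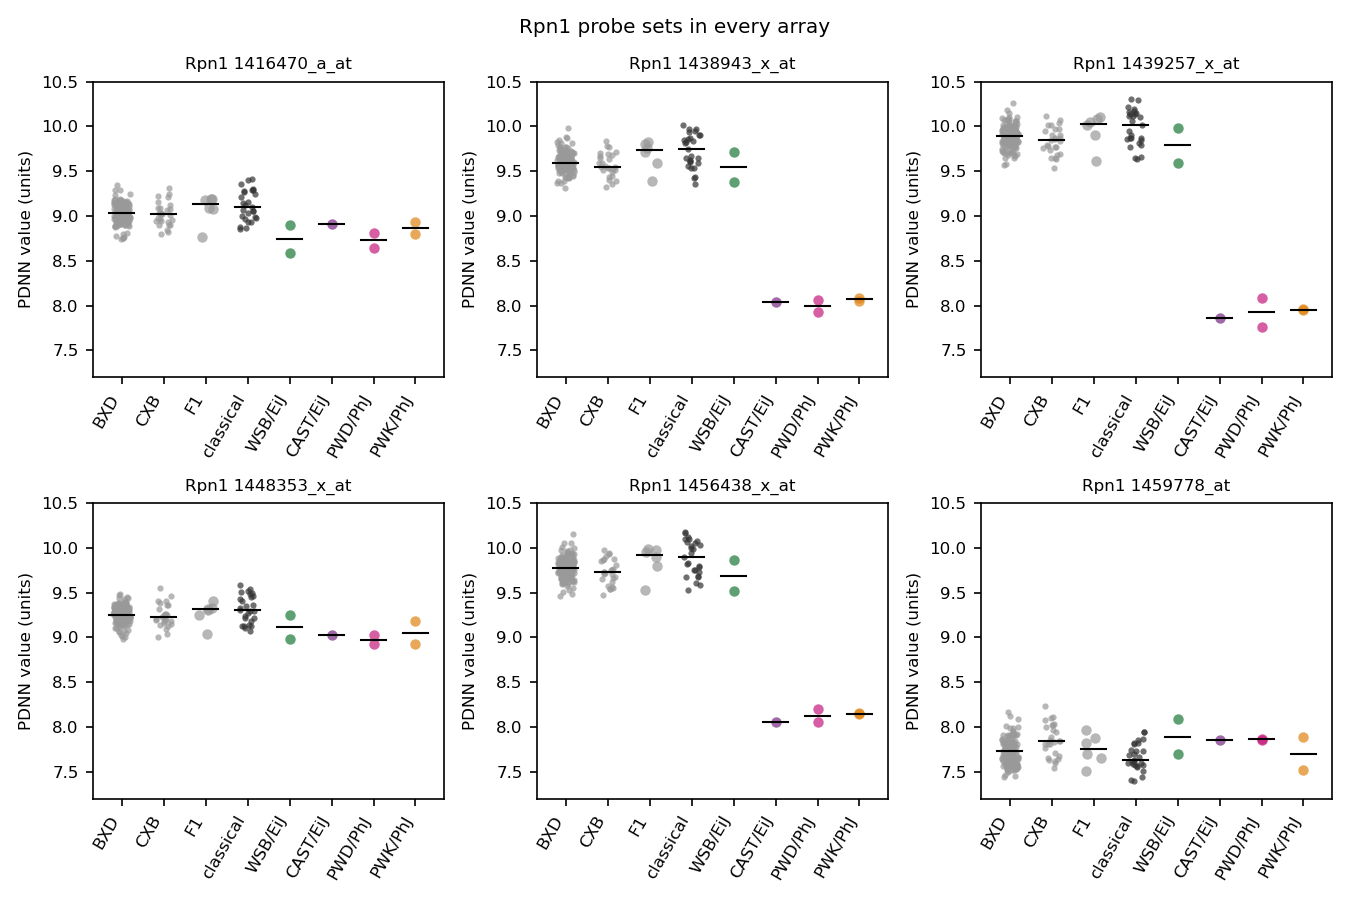
PDNN value (y axis, log-like units) of every array for the 6 Rpn1 probe sets, grouped on the x axis by panel or wild-derived strain; points are arrays and lines are medians. On 1438943_x_at, 1439257_x_at and 1456438_x_at the arrays of CAST/EiJ, PWD/PhJ and PWK/PhJ lie between 7.76 and 8.20, below every other array, and on the other 3 panels no strain stands apart to that extent.

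Rpn1 probe sets 1416470_a_at and 1448353_x_at, the pair for which the annotation lists a transcript of the gene, differed far less. On 1448353_x_at the arrays had 9.03 (CAST/EiJ), 9.03 and 8.92 (PWD/PhJ), 9.18 and 8.92 (PWK/PhJ) and 9.25 and 8.98 (WSB/EiJ), against 9.07 to 9.58 in the classical arrays. Below every classical array lay 5 wild-derived arrays, all but PWK/PhJ replicate 1 and WSB/EiJ replicate 1. The fitted differences on 1448353_x_at were -0.31 ± 0.12, -0.37 ± 0.08, -0.25 ± 0.08 and -0.19 ± 0.08, with CAST/EiJ, PWD/PhJ and PWK/PhJ below the range of classical strain values. On 1416470_a_at they were -0.20 ± 0.13, -0.42 ± 0.10, -0.22 ± 0.09 and -0.35 ± 0.09 (SE, same n), with PWD/PhJ and WSB/EiJ below that range. The direction of these differences did not hold in every summary. For 1448353_x_at in CAST/EiJ, PWD/PhJ and PWK/PhJ the differences were 0.06, 0.04 and 0.01 units with MAS5 values and 0.03, -0.05 and 0.10 with RMA values. For 1416470_a_at they were 0.03, -0.29 and -0.18 with MAS5 values and -0.02, -0.17 and 0.14 with RMA values.

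Rpn1 probe set 1459778_at, with a mean of 7.74 units over all arrays, was above the classical range in CAST/EiJ, PWD/PhJ and WSB/EiJ. Its differences were 0.22 ± 0.15 in CAST/EiJ, 0.26 ± 0.11 in PWD/PhJ, 0.01 ± 0.11 in PWK/PhJ and 0.20 ± 0.11 in WSB/EiJ (SE, n = 1, 2, 2 and 2). The WSB/EiJ difference rested on single arrays, with 0.47 without replicate 1 and -0.08 without replicate 2, and so did that of PWK/PhJ, with 0.14 and -0.12. Across the 68 BXD strains it was also negatively correlated with the 5 other Rpn1 probe sets (Pearson r from -0.64 to -0.51), which correlated with each other at 0.82 to 0.98. Probe sets share each strain's arrays, so these are descriptions of common variation.

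The separation within the gene was also taken array by array. The mean of the 3 lowered Rpn1 probe sets minus the mean of 1416470_a_at and 1448353_x_at was set to 0 at the median classical array. Relative to that, it was -1.64 units in the CAST/EiJ array, -1.46 and -1.52 in PWD/PhJ, and -1.64 and -1.46 in PWK/PhJ. It was 0.13 and 0.06 in WSB/EiJ. The classical arrays ran from -0.18 to 0.35, the BXD arrays from -0.17 to 0.14, the CXB arrays from -0.15 to 0.12 and the F1 arrays from -0.10 to 0.09. No array of those panels approached the 5 low arrays.

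Over all 45037 probe sets, the mean difference of CAST/EiJ, PWD/PhJ and PWK/PhJ from the classical strains was lowest for Rpn1 1439257_x_at (rank 1, -2.07 units), with 1456438_x_at at rank 2 (-1.77) and 1438943_x_at at rank 4 (-1.69). Rank 3 was a probe set of Ncan, a brain proteoglycan (1444020_at, -1.73). A gap of at least 1 unit below every classical strain in all 3 of those strains was seen for 4 probe sets, the 3 of Rpn1 and Parm1 1424214_at, and in all 4 WSB/EiJ was within the classical range. Ncan and Parm1 were named after their values were seen. Among 910 genes with 2 or more probe sets at a mean of 9 or more, the mean difference spread by 1.79 units between the 5 such probe sets of Rpn1. This was the 2nd largest spread, and the median over those genes was 0.13. Rpn1 was selected because it differed between wild-derived and classical strains in these same values. Its ranks, its share of the 4 probe sets and its spread therefore only describe that selection.

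The drop was present in each of the authors' summaries. RMA and MAS5 values are on other scales, so each array was also expressed in SDs of the 21 classical arrays that could be used in all tables. On Rpn1 1439257_x_at the CAST/EiJ, PWD/PhJ and PWK/PhJ arrays were at -11.9 to -10.2 SDs from the classical mean in PDNN values, -20.8 to -17.0 in RMA and -31.6 to -18.8 in MAS5. The WSB/EiJ arrays were at -0.17 and -2.19 SDs in PDNN values.

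**Figure D2:**
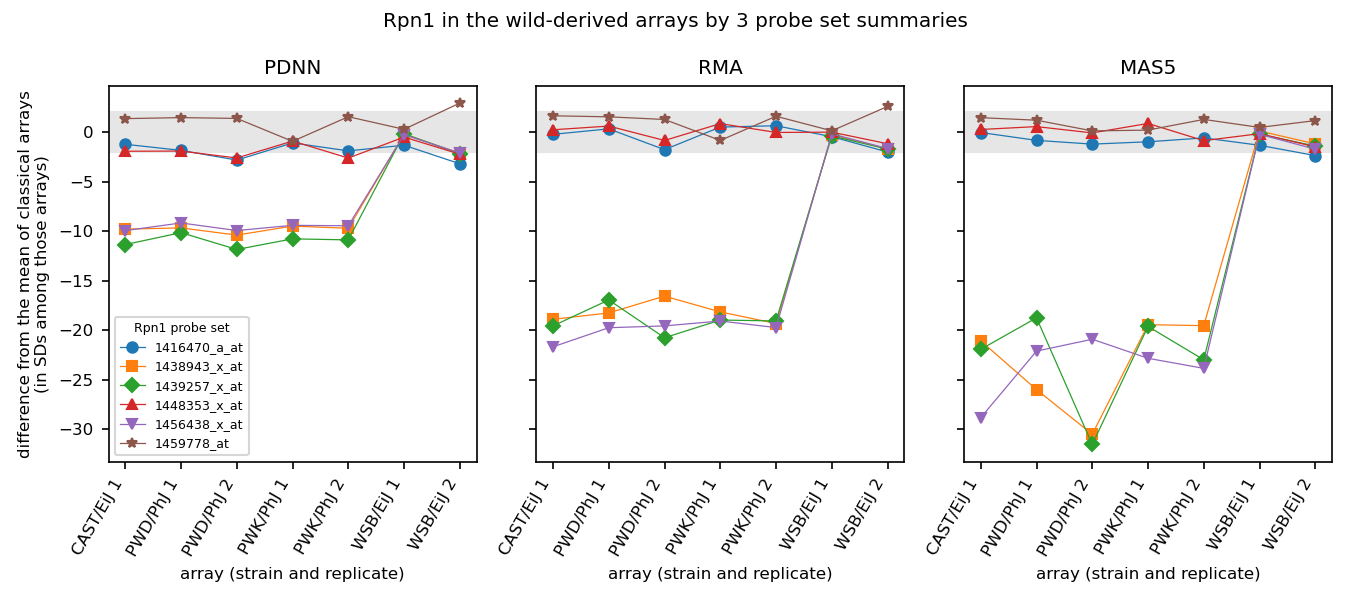
Difference of each wild-derived array (x axis) from the mean of 21 classical arrays, in SDs among those arrays (y axis), for the 6 Rpn1 probe sets in the PDNN, RMA and MAS5 values; the grey band spans 2 SDs either side of 0. On 3 probe sets the 5 arrays of CAST/EiJ, PWD/PhJ and PWK/PhJ lie well below the band in every summary, and the WSB/EiJ arrays lie near it.

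Batch, RNA quality and tissue make-up were set beside these differences. Against classical arrays of the same batch, Rpn1 1439257_x_at differed by -2.15 units in CAST/EiJ (batch 5), by -1.88 (batch 7) and -2.25 (batch 5) in the PWD/PhJ arrays, and by -2.04 (batch 5) and -2.01 (batch 6) in the PWK/PhJ arrays. The WSB/EiJ arrays differed by 0.02 (batch 6) and -0.41 (batch 5). The ratio of 3' to 5' ACTB signal, which rises as RNA shortens, was 2.74 in CAST/EiJ, 1.89 and 2.80 in PWD/PhJ, 2.32 and 4.65 in PWK/PhJ, and 1.44 and 1.32 in WSB/EiJ, against a classical median of 1.67 and maximum of 3.71. With its logarithm as a covariate the Rpn1 1439257_x_at differences were -2.25, -2.19, -2.22 and -0.09 units. Without PWD/PhJ replicate 1, whose header disagrees, the PWD/PhJ difference was -2.22.

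The mean over 4 astrocyte markers was below the classical range of 9.36 to 9.71 in all 4 wild-derived strains (9.26 in CAST/EiJ, 9.19 in PWD/PhJ, 9.19 in PWK/PhJ and 9.34 in WSB/EiJ). The mean over 5 dentate granule neuron markers was below its range of 8.58 to 8.94 in CAST/EiJ (8.44), PWD/PhJ (8.54) and PWK/PhJ (8.44) and within it in WSB/EiJ (8.69). The interneuron mean was above its range in CAST/EiJ and PWD/PhJ, and the endothelial mean was below its range in WSB/EiJ. Pyramidal neuron, oligodendrocyte, microglia and choroid plexus means were within range in all 4 strains. The part of these differences in the values of Rpn1 was not tested.

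**Figure D3:**
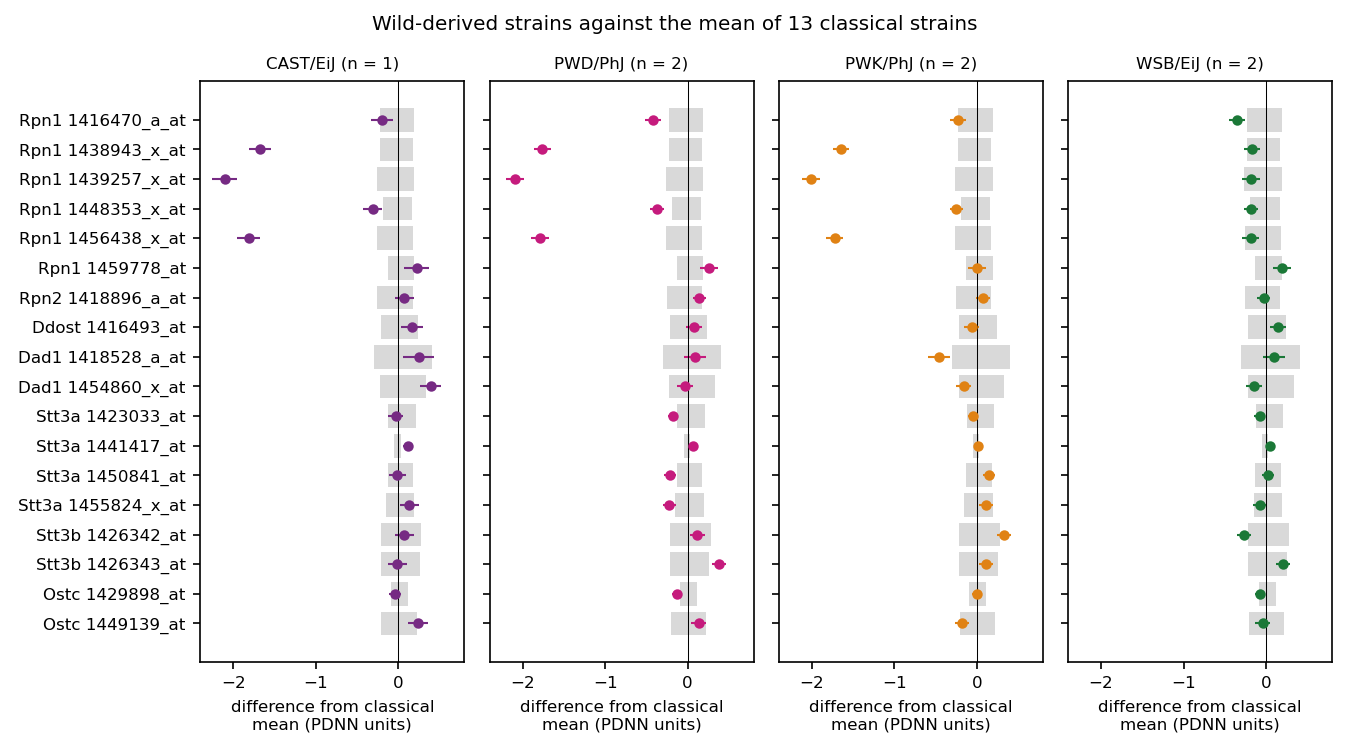
Fitted difference of each wild-derived strain from the mean of the 13 classical strains (x axis, PDNN units; bars are SE) for the 18 probe sets (y axis), with the range of classical strain values in grey. Only 3 Rpn1 probe sets lie more than 1 unit from 0, in CAST/EiJ, PWD/PhJ and PWK/PhJ; the next largest difference is -0.46, of Dad1 1418528_a_at in PWK/PhJ.

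Counted over the 18 probe sets of the complex, the strain value was outside the range of the 13 classical strains for 8 in CAST/EiJ, 12 in PWD/PhJ, 6 in PWK/PhJ and 4 in WSB/EiJ. Over all probe sets the share outside was 38.7%, 29.5%, 20.5% and 15.5% in the same order, and nothing is read from these counts, since the genes were selected on this contrast. Single arrays moved 2 of the counts: without PWK/PhJ replicate 1 the PWK/PhJ count was 10, and without WSB/EiJ replicate 1 the WSB/EiJ count was 13. WSB/EiJ replicate 1 held RNA of 1 mouse, and replicate 2 of 3 mice.

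The catalytic subunits varied in both directions. Stt3b 1426342_at had 10.10 and 10.03 units in the PWK/PhJ arrays and 9.50 and 9.44 in the WSB/EiJ arrays. The classical arrays ran from 9.47 to 10.17, and the fitted differences were 0.32 ± 0.08 in PWK/PhJ, above the classical range, and -0.27 ± 0.08 in WSB/EiJ, below it. Stt3b 1426343_at was above the range in PWD/PhJ (0.38 ± 0.08) and within it in the other 3 strains. Stt3a 1423033_at, 1450841_at and 1455824_x_at were all below the range in PWD/PhJ, with differences of -0.18 ± 0.06, -0.21 ± 0.08 and -0.22 ± 0.08, and within it in CAST/EiJ, PWK/PhJ and WSB/EiJ. The remaining Stt3a probe set, 1441417_at, ran from 7.14 to 7.22 among classical strains and differed from their mean by 0.02 to 0.11 in the wild-derived ones.

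Among the shared subunits, Rpn2 1418896_a_at and Ddost 1416493_at stayed within the classical range in all 4 strains. Their differences ran from -0.03 to 0.14 and from -0.06 to 0.16 units. Dad1, a small membrane subunit named as a defender against cell death, had a different outlying strain on each probe set: 1418528_a_at was lower in PWK/PhJ (-0.46 ± 0.13, n = 2) and 1454860_x_at was higher in CAST/EiJ (0.39 ± 0.13, n = 1). Of the PWK/PhJ pair the male array had 8.62 and the female array 9.11 on 1418528_a_at. Ostc 1449139_at was above the range in CAST/EiJ (0.24 ± 0.12) and Ostc 1429898_at below it in PWD/PhJ (-0.13 ± 0.05). No probe set of the other 6 genes had a difference as large as 1 unit.

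Across the BXD strains, the question was whether arrays of 1 strain resembled each other more than arrays of different strains. Of the 18 probe sets, 1 differed among the 68 strains in limma's moderated F-test with Benjamini-Hochberg adjustment, Ostc 1429898_at (F = 3.35, adjusted p = 1.24e-06), where 6.95% of all probe sets passed. Rpn1 did not pass on any of its probe sets. Its strain values on 1439257_x_at ran from 9.68 (labelled BXD14, with BXD23 in its file headers) to 10.07 (BXD79). The intraclass correlation estimates the share of variance lying between strains, and the estimate can fall below 0. It was -0.08 for Rpn1 1439257_x_at. It was 0.56 for Ostc 1429898_at and had a median of 0.13 over all probe sets.

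Ostc 1429898_at, with a mean of 7.65 units, had its lowest BXD strain values in BXD2 (7.45), BXD98 (7.50) and BXD65b (7.50) and its highest in BXD73 (7.77), BXD62 (7.78) and BXD87 (7.83). The BXD2 arrays both had 7.47 and the BXD87 arrays 7.80 and 7.81, so both sexes of each strain lay on the same side. BXD98 was less even, with 7.39 in females and 7.61 in males. Over 62 BXD strains with both sexes, males and females correlated at r = 0.56 (Spearman rho 0.59) after sex and batch terms were removed. The other Ostc probe set, 1449139_at, did not pass, and its correlation between the sexes was -0.02. The parents had 7.61 (C57BL/6J) and 7.68 (DBA/2J) on 1429898_at, which lies inside the span of the lines, and their difference did not pass the test (0.08 ± 0.06, adjusted p = 0.64 by limma). The call held in every alternative in which this probe set was tested (adjusted p from 1.21e-06 to 0.00214).

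Ddost, Rpn2 and Stt3a had intraclass correlations of 0.42 (Ddost), 0.35 (Rpn2) and 0.44 (Stt3a 1450841_at) across BXD strains without passing the test. With the BXD arrays fitted alone, Ddost 1416493_at (adjusted p = 0.00245) and Stt3a 1450841_at (0.00609) passed as well by limma's F-test, beside 8.38% of all probe sets.

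In the CXB strains, 1 of the 18 probe sets reached the threshold in limma's F-test, Stt3b 1426342_at (F = 4.61, adjusted p = 0.000404), where 4.2% of all probe sets passed. Its strain values were lowest in CXB9 (9.32), CXB12 (9.36) and CXB8 (9.39) and highest in CXB13 (9.76), CXB4 (9.80) and CXB2 (9.87). The arrays had 9.26 and 9.31 in CXB9, 9.30 and 9.36 in CXB12, 9.76 and 9.77 in CXB4, and 9.91 and 9.76 in CXB2. These strains were picked as the extremes of the same values, so their separation is a description. Males and females of the 13 strains correlated at r = 0.71 (rho 0.84) on this probe set and at 0.61 (rho 0.52) on Stt3b 1426343_at, which did not pass. With the 27 CXB arrays fitted alone the adjusted p of 1426342_at was 0.0747, and with RMA values it was 0.158.

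**Figure D4:**
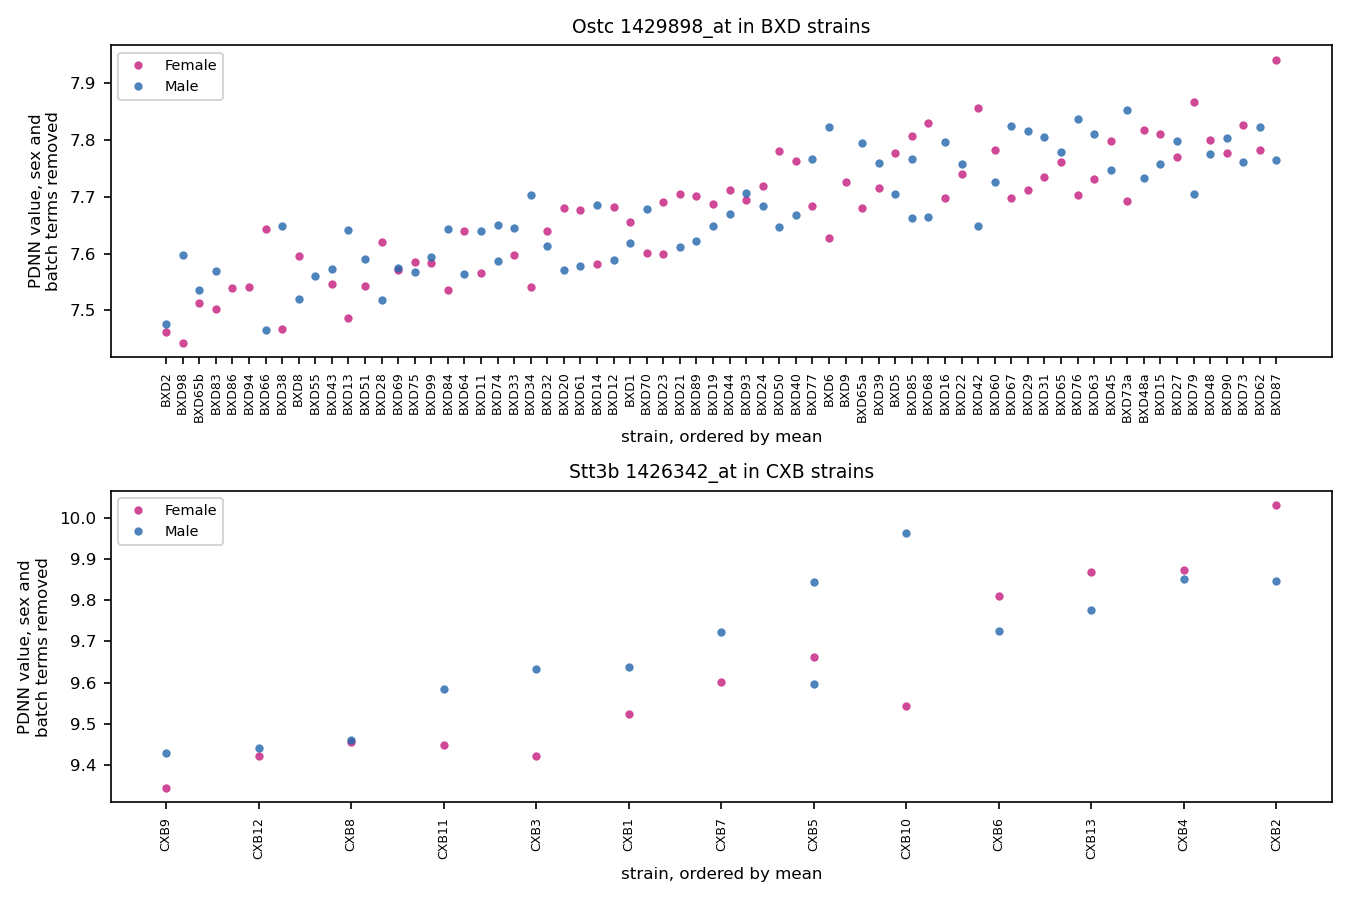
PDNN value after the fitted sex and batch terms were removed (y axis, on the scale of a female array of batch 1) for Ostc 1429898_at in the BXD strains (upper) and Stt3b 1426342_at in the CXB strains (lower), with strains on the x axis ordered by mean and 1 point per array. Strain values, which are fitted means over batches and sexes and so are not on the plotted scale, ran from 7.45 to 7.83 for Ostc. Those of Stt3b ran from 9.32 to 9.87. Males and females of a strain tended to lie together (r = 0.56 and 0.71).

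Among the 13 classical strains, 6 of the 18 probe sets reached the threshold in limma's F-test, where 28% of all probe sets passed. They were Stt3b 1426342_at (adjusted p = 0.00402) and 1426343_at (0.00455), Dad1 1454860_x_at (0.00596) and 1418528_a_at (0.0174), Stt3a 1423033_at (0.0182) and Ddost 1416493_at (0.0294). Dad1 1418528_a_at ran from 9.20 in NOD/LtJ to 9.90 in AKR/J, and Ddost from 8.71 in NOD/LtJ to 9.16 in C57BL/6ByJ. Stt3b 1426342_at ran from 9.53 in KK/HIJ to 10.02 in NOD/LtJ, so NOD/LtJ was at opposite ends for these subunits. The NOD/LtJ arrays had ACTB 3' to 5' ratios of 2.89 and 3.09, and the authors' RMA outlier shares of 0.14 and 0.10. With the ACTB ratio as a covariate the adjusted p of Dad1 1418528_a_at was 0.0823 by limma's F-test. Without arrays of outlier share 0.1 or more it was 0.122 and that of Ddost 0.0949, by the same test. That limit removed NOD/LtJ and also arrays of other classical strains. Among them were AKR/J replicate 2 and NZO/HlLtJ replicate 2, the highest (10.018) and lowest (8.593) classical arrays on Dad1 1418528_a_at. Removal of NOD/LtJ alone was not tested. The Rpn1 probe sets 1438943_x_at, 1439257_x_at and 1456438_x_at had adjusted p of 0.058, 0.0821 and 0.0739, and 1438943_x_at passed (0.0399) when only probe sets with a mean of 8 units or more were tested by limma. Rpn2 did not pass (0.0724), but did with RMA values (0.00409) and after quantile normalization (0.00105), by limma's F-test. None of the 6 calls held when the classical arrays were fitted alone (adjusted p from 0.357 to 0.758), where 2.94% of all probe sets passed. Over the alternatives in which each was tested, Stt3b 1426342_at lost its call in 3 of 13 and Stt3b 1426343_at in 4 of 13. Dad1 1454860_x_at lost its call in 1 of 13, Dad1 1418528_a_at in 3 of 13, Ddost in 4 of 13 and Stt3a 1423033_at in 5 of 12. Neither Stt3b 1426342_at nor Stt3a 1423033_at passed with RMA values.

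Between the BXD parents, Stt3b 1426342_at was higher in DBA/2J, and 1 of 18 probe sets passed limma's test, against 7.24% of all probe sets (4.61% higher and 2.63% lower in DBA/2J). The DBA/2J arrays, both of females, had 9.86 (batch 7) and 10.00 (batch 5). The C57BL/6J arrays had 9.60 (female, batch 6), 9.71 (male, batch 1) and 9.47 (male, batch 5). These array values did not overlap, but the arrays differed in sex and batch as well as strain. The difference was 0.39 ± 0.11 units (SE, adjusted p = 0.0116). B6D2F1 had a strain value of 9.69 and D2B6F1 of 9.90, between the parents' 9.57 and 9.96, and the file header of D2B6F1 replicate 1 names DBA/2J. The adjusted p rose to 0.0765 without DBA/2J replicate 1, to 0.133 without DBA/2J replicate 2 and to 0.10 without C57BL/6J replicate 3, and in batch 5 alone, with 1 array each, the difference was 0.53. The call was also lost in limma's test without the batch term (adjusted p = 0.105) and with MAS5 values (0.269) and RMA values (0.235), where the C57BL/6J columns followed BALB/cJ arrays in the RMA table. With those RMA values the other probe set, Stt3b 1426343_at, passed limma's test (1.07 units on the RMA scale, adjusted p = 0.00206). Among the 68 BXD lines Stt3b 1426342_at did not pass, and its intraclass correlation was -0.13. Rpn1 1439257_x_at differed by 0.24 ± 0.14 between the parents (adjusted p = 0.39).

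The BALB strains (BALB/cByJ and BALB/cJ) and the C57BL/6 strains (C57BL/6ByJ and C57BL/6J), which include the CXB parents, were compared next, and 0 of 18 probe sets passed limma's test, where 5.12% of all probe sets passed. At an unadjusted p under 0.05 there were 3, all lower in the BALB strains: Dad1 1454860_x_at (-0.29 ± 0.09, adjusted p = 0.0584), Stt3b 1426343_at (-0.25 ± 0.08, adjusted p = 0.0632) and Ddost 1416493_at (-0.27 ± 0.10, adjusted p = 0.0877), all by limma. Several alternatives moved 1 or 2 of these past the threshold, and Dad1 had an adjusted p of 0.000796 after quantile normalization. Stt3b 1426342_at, the probe set that varied among the CXB lines, differed by 0.02 ± 0.09 (adjusted p = 0.92).

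Between males and females 0 of 18 probe sets passed limma's test, where 0.118% of all probe sets passed, and 0 of 18 had an unadjusted p under 0.05. The sex difference did not vary between the BXD, CXB and inbred panels for any of them at the threshold either, where 0.00222% of all probe sets passed. There, 1 of 18 had an unadjusted p under 0.05, Ddost, with male minus female differences of 0.00 in BXD, 0.05 in CXB and -0.13 in the inbred strains with the F1 hybrids (limma adjusted p = 0.93).

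The subunits were only loosely tied to each other. Taking each gene's probe set with the highest mean, the 21 pairs had Pearson r from -0.24 to 0.67 over the 68 BXD strain values, with a median of 0.24. Rpn1 1439257_x_at correlated at 0.63 with Stt3a 1455824_x_at, 0.48 with Stt3b 1426342_at, 0.45 with Ostc 1449139_at, 0.28 with Rpn2, 0.22 with Dad1 and -0.02 with Ddost. All strain values rest on the same arrays, and the median r of Rpn1 with 16199 other named probe sets was 0.26, beside which the values of Rpn2, Dad1 and Ddost were near or below that level.

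**Figure D5:**
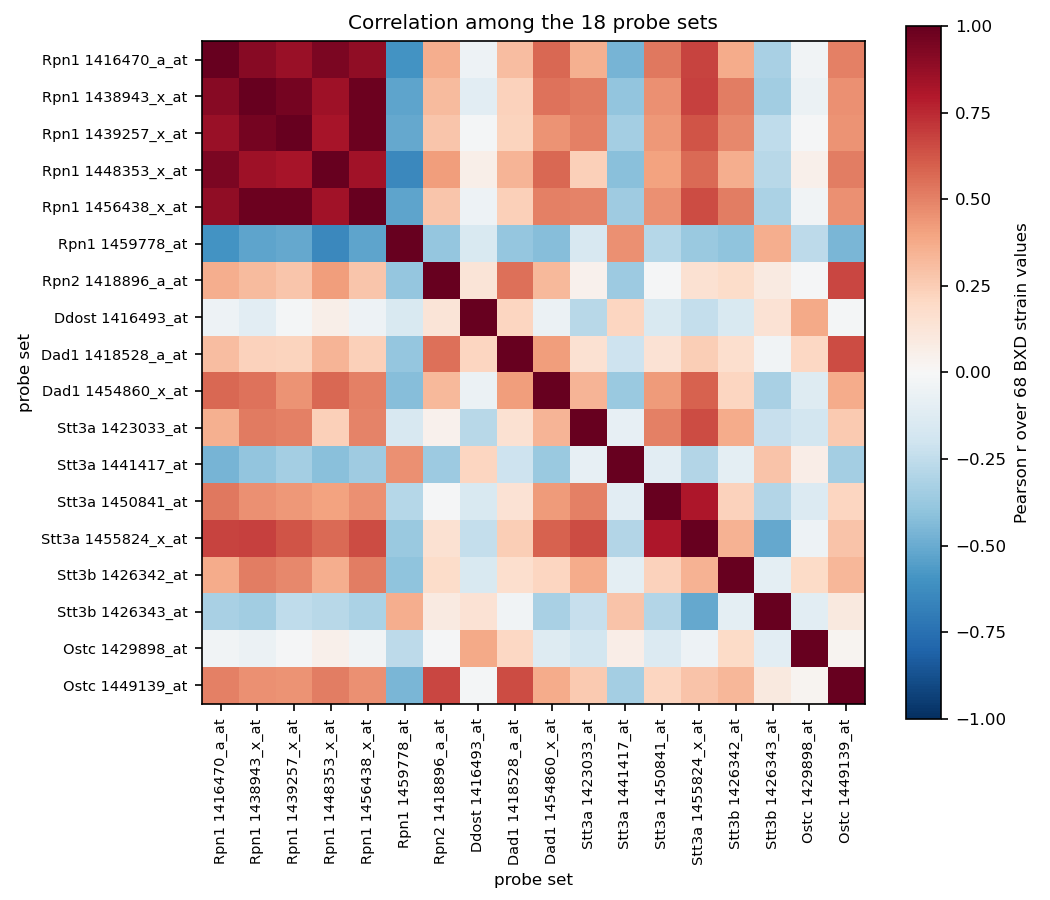
Pearson correlation (colour) between the 18 probe sets over 68 BXD strain values; both axes list the probe sets by gene. The 5 Rpn1 probe sets other than 1459778_at form a block at 0.82 to 0.98, and Rpn1 1459778_at is negatively correlated with them.

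The genes whose pattern was most like that of Rpn1 1439257_x_at across the BXD strains were Arl14ep (r = 0.82), Sod2, the mitochondrial superoxide dismutase (0.81), Emc3, a subunit of the complex that inserts membrane proteins in the endoplasmic reticulum (0.81), Slc30a9 (0.81) and Dhx30 (0.81). Across the 17 inbred strains they were Tmem19 (0.98), Atxn7l3b (0.97), Ipo9, a nuclear import receptor (0.96), Stxbp4 (0.96) and Anapc5, a subunit of the anaphase-promoting complex (0.96), which is a ranking by the contrast that chose Rpn1. Their mean differences in CAST/EiJ, PWD/PhJ and PWK/PhJ were smaller than that of Rpn1, at -0.67, -0.66, -0.96, -0.80 and -0.33 units. Spearman's rho over the same 17 strains was 0.52 to 0.89.

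The other genes of the pathway were followed through 1 probe set each. Of the 5 other subunits (Krtcap2, Magt1, Ost4, Tmem258 and Tusc3), 0 passed among BXD or CXB strains and 3 passed among the classical strains: Magt1, an oxidoreductase subunit of the STT3B form (adjusted p = 0.00439), Krtcap2 (0.0283) and Tmem258 (0.035), by limma's F-test, beside 28% of all probe sets. With the classical arrays fitted alone 0 of the 5 passed, where 2.94% of all probe sets passed. In the wild-derived strains these 5 ranged from -0.44 (Ost4 in PWK/PhJ) to 0.16 units (Krtcap2 in CAST/EiJ). Of 22 measured genes of lipid-linked oligosaccharide synthesis, 2 passed among BXD strains, Alg9, which adds mannose to the growing chain (9.09e-10), and Alg13 (8.12e-07), and 2 among CXB strains, Alg9 (0.000373) and Dpm2 (0.0305), beside 6.95% and 4.2% of all probe sets. Both CXB calls were lost with that panel fitted alone, and in the BXD panel alone Alg9 and Alg13 passed, with Dhdds. Between the BXD parents 1 of the 22 passed limma's test, beside 7.24% of all probe sets. It was Alg2, lower in DBA/2J than in C57BL/6J (-0.26 ± 0.07, adjusted p = 0.0147). Alg1, the first mannosyltransferase of that pathway, was the lowest of the 22 in CAST/EiJ (-0.37), PWD/PhJ (-0.37) and PWK/PhJ (-0.32, within the classical range). Alg8 was above the range in the same strains (0.35, 0.22 and 0.21). Of the 22 genes, 3, 5 and 4 were below the range in these strains, and 4, 5 and 2 were above it. Over all probe sets 14%, 8.98% and 8.43% were below it, and 24.8%, 20.5% and 12.1% above it.

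Of 15 genes of glycan trimming and the calnexin cycle, which fold the glycosylated proteins, 1 passed among BXD strains, beside 6.95% of all probe sets. It was Uggt2 (3.1e-05 by limma's F-test), which also passed with that panel fitted alone. Between the parents 2 of the 15 passed limma's test, beside 7.24% of all probe sets. Uggt2 was higher in DBA/2J (0.15 ± 0.05, adjusted p = 0.0308). Man1b1, a mannosidase, was lower there (-0.33 ± 0.08, 0.00565), and Mogs and Uggt1 passed among CXB strains (0.0113 and 0.0122), beside 4.2% of all probe sets. With the CXB arrays fitted alone 0 of the 15 passed. Of 17 translocon and signal peptidase genes, limma's tests called 1 among BXD strains (Spcs2, 0.036), 0 among CXB strains and 0 between the parents. The shares of all probe sets called were 6.95%, 4.2% and 7.24% in the same order. Among the classical strains 9 of the 22, 8 of the 15 and 7 of the 17 genes passed, beside 28% of all probe sets, and 0 of the 22, 0 of the 15 and 0 of the 17 passed with the classical arrays fitted alone. Canx, the membrane chaperone of the calnexin cycle, differed by -0.59 in PWD/PhJ, the lowest value of the 15 genes there.

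Of 16 endoplasmic reticulum chaperone and stress response genes, 12 passed limma's F-test among the CXB strains, against 4.2% of all probe sets. They included Xbp1, a transcription factor of the unfolded protein response (adjusted p = 7.73e-06), Hspa5, the main chaperone of the compartment (1.71e-05), Creld2 (8.1e-05) and Manf (0.000463). With the CXB arrays fitted alone 2 of the 16 passed, Hspa5 and Xbp1, against 1.09% of all probe sets. Of the same 16, 4 passed among BXD strains (Pdia6, 1.09e-08; Atf4, 8.34e-07; Hyou1, 0.00158; Pdia4, 0.0449), beside 6.95% of all probe sets. With the BXD arrays fitted alone Pdia6 and Atf4 passed, and Hyou1 and Pdia4 did not. Between the BXD parents 2 of the 16 passed limma's test, beside 7.24% of all probe sets. Hspa5 was higher in DBA/2J than in C57BL/6J (0.56 ± 0.17, adjusted p = 0.0219) and Atf4 lower (-0.36 ± 0.08, adjusted p = 0.00124). The median difference of the 16 genes between the parents was 0.10, beside -0.02 for all probe sets.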

How the data were processed

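PDNN, RMA and MAS5 values are scores deposited by the authors, 1 per probe set and array; the design text states scaling of PDNN to a mean of 8 and SD of 2, whereas PDNN array SDs were 0.63 to 0.80. No source used here gives the versions of the summary software. The RMA table held 197 arrays and its C57BL/6J and BXD14 columns followed other arrays, as did a MAS5 column of CXB5.

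Probe sets were named from GEO's platform annotation, and 64 control probe sets were left out. A model of strain, sex and batch was fitted to 45037 probe sets with limma 3.58.1 (R 4.3.3, the data.table package, version 1.17.8), with 92 residual degrees of freedom. The technical duplicate of B6D2F1 males was averaged and the mixed-sex array BXD9 replicate 2 left out, so 199 columns were fitted. Contrasts were tested two-sided and strain effects by moderated F-tests, with Benjamini-Hochberg adjustment over all probe sets and a threshold of 0.05. The fit was tested on simulated data. Strain values are fitted means over batches and sexes. Arrays have no counting depth, and their number limits the precision.

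All probe sets of the 7 genes were described, pathway genes through the probe set with the highest mean, and the 5 most similar genes by Pearson r over BXD and over inbred strains (1 symbol, mean of 8 or more, no clone or predicted names). Members, lists and tests were chosen with earlier results of these data known. Of the 18 probe sets, 14 had a mean of 8 or more, used as an alternative filter. Other alternatives were RMA, MAS5, quantile normalization, rescaling to SD 2, no batch term, pool age or the ACTB ratio as covariates, removal of arrays with outlier shares of 0.1 or more or disagreeing headers (7 arrays), separate duplicates, panels fitted alone, and each compared array left out. Sec61g was not analysed here.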

Additional observations from a re-analysis of the deposited data

Results flagged for a closer look

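Within the 5 F1 arrays (the technical duplicates averaged), D2B6F1 replicate 3 lay below the others on 4 Rpn1 probe sets, with a gap to the nearest array that exceeded Dixon's 95% limit for 5 values. It had 8.76 units on 1416470_a_at (nearest 9.08), 9.39 on 1438943_x_at (nearest 9.71), 9.61 on 1439257_x_at (nearest 9.99) and 9.53 on 1456438_x_at (nearest 9.87). On the last 3 of these probe sets its values were above those of every CAST/EiJ, PWD/PhJ and PWK/PhJ array. In all, 36 sets of arrays were examined, about 1 in 20 exceeds that limit by chance, and the 4 probe sets are not independent of each other.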

How the results depend on the processing

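The number of the 18 probe sets that passed moved as follows. For BXD strains it was 2 for MAS5, 0 after the mean filter (which removes Ostc 1429898_at) and 3 with the panel fitted alone. For CXB strains it was 0 with RMA values, also without the columns that follow another array (an alternative chosen after seeing the data), 2 with MAS5 values, 2 with the ACTB ratio and 0 with the panel alone. For classical strains it was 2 without arrays of outlier share 0.1 or more and 0 with the panel alone. For DBA/2J against C57BL/6J it was 0 with MAS5 values, 0 without the batch term and 0 to 1 with arrays left out in turn. For BALB against C57BL/6 it was 1 with MAS5 values, 2 with quantile normalization, with rescaling, with the mean filter and with the ACTB ratio, and 0 to 2 with arrays left out. The number outside the classical range was 6 to 10 for PWK/PhJ with arrays left out, and for WSB/EiJ 1 with RMA values (1 without the doubtful columns), 2 with MAS5 values, 2 with the mean filter and 4 to 13 with arrays left out. Counts for sex and sex by panel stayed at 0 in all 12 alternatives.

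The Rpn1 1439257_x_at difference kept its direction in PWD/PhJ and PWK/PhJ in every alternative run. In CAST/EiJ it did so in every alternative that kept the array. That array, with an RMA outlier share of 0.14, was removed with those of 0.1 or more. So were PWD/PhJ replicate 1 (0.12) and PWK/PhJ replicate 2 (0.15). On the wider scales the difference in CAST/EiJ, PWD/PhJ and PWK/PhJ was -5.60, -5.48 and -5.51 with RMA values (-5.60, -5.49 and -5.51 without the doubtful columns). It was -5.51, -6.47 and -5.38 with MAS5 values and -5.68, -5.57 and -5.45 after rescaling. With the ACTB ratio it was -2.22 in PWK/PhJ. With arrays left out it was -0.39 to 0.034 in WSB/EiJ.

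Over all probe sets, the calls fell from 3129 to 1743 for BXD (mean filter), from 1890 to 1109 (mean filter) and 492 (panel alone) for CXB, from 12626 to 8102 (RMA), 7992 (RMA without the doubtful columns), 7354 (MAS5), 6438 (outlier arrays left out) and 1322 (panel alone) for classical strains, from 3260 to 2011 (RMA), 2125 (mean filter), 1480 (no batch term) and as few as 1424 (arrays left out) for the parents, and from 2308 to 1234 (MAS5), 1364 (no batch term) and 1199 (without C57BL/6ByJ replicate 2) for BALB. Sex gave 53 and, with the mean filter, 32, and sex by panel 1, with 0 to 4 elsewhere. Except where fewer probe sets or arrays were used, the cause was not tested. BALB against C57BL/6 had no RMA value and none without the only BALB/cByJ array, and CAST/EiJ, with 1 array, could not be left out. No paired analysis was possible because the labels number no replicates across strains. The number of arrays limits the precision.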

Other observations

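Among the 10 probe sets with the lowest mean difference of CAST/EiJ, PWD/PhJ and PWK/PhJ from the classical strains, those with a gene name outside Rpn1 were Ncan, Taok1, Reep3, Scn2b and Parm1. They were named after their values were seen. Scn2b 1430648_at, a sodium channel beta subunit, had a mean difference of -1.41 units with 0.10 in WSB/EiJ, and Reep3 1424780_a_at had -1.44 with -0.13 in WSB/EiJ. Of the 16 chaperone and stress response genes, the strain value was above the classical range for 7 in CAST/EiJ, 5 in PWD/PhJ, 1 in PWK/PhJ and 0 in WSB/EiJ, and below it for 1, 1, 2 and 2. Over all probe sets 24.8%, 20.5%, 12.1% and 10.3% were above the range in these strains, and 14%, 8.98%, 8.43% and 5.23% below it. Hyou1, an endoplasmic reticulum chaperone, had the highest of these differences in CAST/EiJ (0.45).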
